A study of Danio rerio with 2 samples.

Results

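Somatolactotropes beta are zebrafish pituitary cells marked by a large amount of somatolactin beta (*smtlb*) transcript. They were taken as the cells that carry this name in the cell type annotation deposited by the authors, 139 of the 6988 annotated cells, of which 112 came from the *gnrh3*-/- library and 27 from the WT library. Pituitaries of 3-month-old sexually mature females were dissociated and profiled by droplet single-cell RNA sequencing, 5 pooled *gnrh3*-/- pituitaries in one library and 5 pooled pituitaries of their WT sisters in the other. The *gnrh3*-/- fish lack a functional gene for gonadotropin-releasing hormone 3, the form whose neurons project to the pituitary in this species. With 1 library per genotype no difference between the genotypes had a replicate check, no test was run, and the intervals below cover counting error only. The cells were grouped on their own expression, so every difference between somatolactotropes beta and other types is a description.

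Somatolactin is a hormone of the growth hormone and prolactin family that is found in fish and made in the pars intermedia of the pituitary. Work in several fish has linked it to body colour, acid-base and calcium balance, and reproduction. Zebrafish carry a pair of somatolactin genes, *smtla* and *smtlb*, and the annotation holds a second type, somatolactotropes alpha, in which *smtla* was found. Like somatotropes and lactotropes, these cells belong to the lineage that depends on the transcription factor Pou1f1.

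The values are counts of unique molecular identifiers (UMIs), each standing for 1 captured transcript. Over all deposited cells, the median depth was lower in the *gnrh3*-/- library than in the WT library, and this held within somatolactotropes beta. The median beta cell held 7296.5 UMIs in the *gnrh3*-/- library and 14634 in the WT library, and 3774 and 6978 UMIs once *smtlb* was left out. Somatolactotropes beta held 2.90% of the UMIs of the *gnrh3*-/- cells and 2.07% of those of the WT cells. Because *smtlb* takes up about as much of each cell as all other genes together, the level of a gene is given as its UMIs per 10000 UMIs of all genes other than *smtlb*, unless stated otherwise. The beta cells held 448666 such UMIs in the *gnrh3*-/- library and 193122 in the WT library, so that 3 UMIs, the limit used where a gene had none, are a level of 0.0669 and 0.155. The mutated gene had 0 UMIs in the beta cells of either library, so it does not check the genotype labels here. The libraries shared 1 cell barcode, which was not that of a beta cell.

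Somatolactotropes beta made up 2.34% of the *gnrh3*-/- cells (95% Clopper-Pearson interval 1.93 to 2.80) and 1.23% of the WT cells (0.813 to 1.79). The interval for the *gnrh3*-/- library lay above that for the WT library. The annotation also contained 466 *gnrh3*-/- and 220 WT somatolactotropes alpha, 9.72% and 10.0% of the cells. The share of beta cells depended on where the border with alpha cells was drawn. When alpha cells with over 5% of their UMIs from *smtlb* were counted as beta, a split chosen after the data were seen, the shares were 3.21% in the *gnrh3*-/- library and 2.37% in the WT library.

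Over all UMIs, *smtlb* had a level of 5343 per 10000 in *gnrh3*-/- beta cells (95% Poisson interval 5328 to 5357) and 5753 in WT beta cells (5731 to 5775), a log2 ratio of -0.11. Of all *smtlb* UMIs in cells, beta cells held 85.8% in the *gnrh3*-/- library and 89.9% in the WT library, and alpha cells held 4.95% and 9.88%. Within single beta cells, the *smtlb* share of UMIs had a lowest value of 0%, a median of 48.0% and a highest value of 72.7% in the *gnrh3*-/- library, against 8.75%, 52.1% and 75.4% in the WT library. The ranges overlapped almost entirely. Cells with more UMIs had a larger *smtlb* share, with a Spearman correlation across cells of 0.86 over 112 *gnrh3*-/- cells and 0.90 over 27 WT cells. Both measures count *smtlb*, but its UMIs also followed the UMIs of all other genes, with correlations of 0.78 and 0.80. The cells of each set came from 1 library, so these correlations describe that library.

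**Figure D1:**
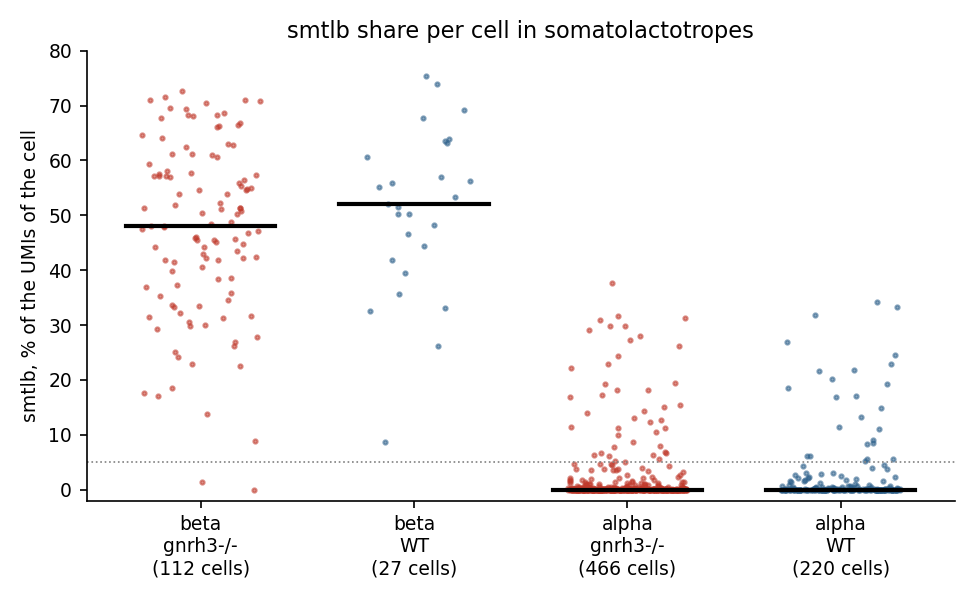
Share of the UMIs of each cell that came from *smtlb*, in %, for somatolactotropes beta (*gnrh3*-/-, then WT) and alpha (*gnrh3*-/-, then WT). Each point is 1 cell, the bars are medians (48.0% and 52.1% in beta cells), the dotted line is 5%, and the highest alpha cells reach 37.7% and 34.2%, inside the range of beta cells.

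The marker fitted the label in nearly all members, and 4 *gnrh3*-/- cells stood apart by a low *smtlb* share or by a second hormone. In the *gnrh3*-/- library, 1 cell of 2779 UMIs had 0 *smtlb* UMIs, and 40.6% of its UMIs came from *gh1*, which encodes growth hormone and marks somatotropes. A second cell of 22835 UMIs held 18.6% *smtlb* and 41.6% *gh1*, 9503 UMIs. Of the other low cells, 1 of 1671 UMIs had 1.38% *smtlb* and 1 of 2083 UMIs had 8.93%, and the lowest WT cell, of 1634 UMIs, had 8.75%. These cells were shallow apart from the one with both hormones. Scrublet called 0 beta cells as doublets in either library. The 2 cells with over 5% *gh1* are kept in all values unless their effect is given.

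The paralog *smtla* was not found in any beta cell. It had 0 UMIs in the beta cells of both libraries, so that its level there was at most 0.0669 (*gnrh3*-/-) and 0.155 (WT), against 57.3 and 83.7 in alpha cells. With 3 UMIs set in beta cells, the log2 ratio of beta over alpha was -9.74 in the *gnrh3*-/- library and -9.07 in the WT library. The separation was not symmetrical, because many cells annotated as alpha carried *smtlb*. Summed over alpha cells, *smtlb* had more UMIs than *smtla*, 29709 against 7440 in the *gnrh3*-/- library and 28767 against 8301 in the WT library. Most alpha cells held little of either paralog. *smtla* had a UMI in 53.2% of *gnrh3*-/- and 39.5% of WT alpha cells and over 1% of the UMIs in 17.4% and 16.4%, while 64.4% and 63.2% of alpha cells had at most 1% of each. The comparisons with alpha cells below are thus largely with cells poor in both hormones. Over 5% of the UMIs came from *smtlb* in 42 *gnrh3*-/- and 25 WT alpha cells, 9.01% and 11.4% of that type. In these cells *smtla* had a level of 2.83 in the *gnrh3*-/- library and 0 UMIs in the WT library, and over 1% of UMIs from each paralog was seen in 0 *gnrh3*-/- and 2 WT alpha cells. Cells with high amounts of both somatolactins were therefore rare in these libraries.

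**Figure D2:**
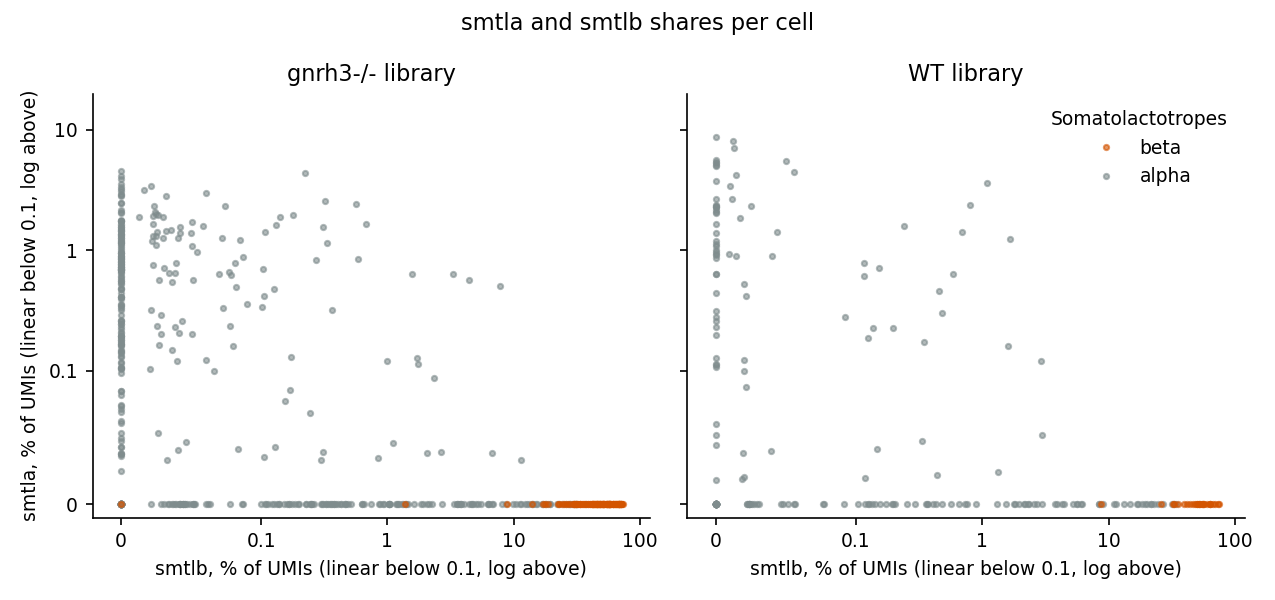
Share of UMIs from *smtla* (vertical axis, %) against the share from *smtlb* (horizontal axis, %) in each somatolactotrope, *gnrh3*-/- library left and WT library right, both axes linear below 0.1 and logarithmic above. Beta cells (orange) lie on the line of 0 *smtla*, and alpha cells (grey) with over 1% of both hormones number 0 and 2.

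Alpha cells with much *smtlb* lay between beta cells and the other alpha cells for several, but not all, genes that set the types apart. For *gpr137bb*, a relative of a lysosomal membrane protein of mammals, the level was 5.59 in *gnrh3*-/- beta cells, 2.49 in alpha cells with over 5% *smtlb* and 0.665 in alpha cells with up to 1%. In the WT library the same order held, at 5.39, 2.13 and 0.523. For *cox8b*, a subunit of cytochrome c oxidase, the levels were 28.6, 16.9 and 6.70 in *gnrh3*-/- cells, and 35.7, 13.4 and 5.63 in WT cells. In contrast, *abhd6a*, whose mammalian relative breaks down monoacylglycerols, had 8 UMIs in *gnrh3*-/- beta cells (level 0.178) and 0 in WT beta cells. Its levels in alpha cells with over 5% *smtlb* were 20.2 and 9.82, and in alpha cells with up to 1% they were 25.6 and 30.2. They were highest in alpha cells with 1 to 5% *smtlb*, at 45.4 and 39.6, so *abhd6a* did not change steadily with *smtlb*. Other genes high in beta cells did not keep the order in both libraries. The ferritin-like gene *fthl28* had 2.27, 0.257 and 0.323 in *gnrh3*-/- cells. Trypsin (*prss1*) had 2.43, 0.0854 and 0.102 in WT cells. The potassium channel subunit gene *kcne4* had 2.96, 0 and 0.0277 in *gnrh3*-/- cells. The alpha cells were split by *smtlb* after the data were seen, so the order of these sets is a description.

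Very little *smtlb* was found outside the somatolactotropes in the WT library, 0.233% of all *smtlb* UMIs in cells, and more in the *gnrh3*-/- library, 9.20%. In the *gnrh3*-/- library, 21 cells of 7 other types had over 5% *smtlb* and held 94.1% of that outside share, with a median of 12.7% *smtlb* and 13326 UMIs. Scrublet called 15 of these 21 cells as doublets, and the WT library had 0 such cells.

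Among the other hormones of the family, prolactin (*prl*) had 181 UMIs in *gnrh3*-/- beta cells (level 4.03) and 25 in WT beta cells (1.29), and *prl2* had 0 UMIs in both. *gh1* had 11209 UMIs (level 250) in *gnrh3*-/- beta cells and 101 (5.23) in WT beta cells. One *gnrh3*-/- cell held 84.8% of these *gh1* UMIs. In somatotropes alpha, with the hormone genes left out of the total, the *gh1* level was 15195 in the *gnrh3*-/- library and 16496 in the WT library, so that outside the 2 mixed cells growth hormone was a minor transcript in beta cells.

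Beta and alpha cells were compared over 4066 genes with at least 30 UMIs over both types in each library. In both libraries, 54 genes (1.33% of those compared) were over 2-fold higher and 318 (7.82%) over 2-fold lower in beta cells. The medians of the log2 ratios were -0.27 in the *gnrh3*-/- library and -0.22 in the WT library, and 2904 genes (71.4%) lay on the same side of 0 in both. The split depended on the minimum and on the total. Alpha cells held more UMIs without *smtlb* than beta cells in each library, so the minimum favours genes high in alpha cells. With a minimum of 10 UMIs, 112 genes were higher and 329 lower. Nothing is read from the balance of the split, and the list genes below passed the same minimum. With TMM factors 76 genes were higher and 235 lower, and with *smtlb* kept in the total 12 were higher and 2448 lower, since all beta ratios then moved down by 1.07 and 1.19 on the log2 scale. The values below thus describe the RNA of beta cells other than *smtlb*.

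The 10 genes highest in beta cells held 5 heat shock genes and a mixed set of others. Trypsin (*prss1*), best known as a digestive protease, had a level of 2.18 in *gnrh3*-/- and 2.43 in WT beta cells, against 0.139 and 0.111 in alpha cells, log2 ratios of 3.98 and 4.46. The ferritin-like gene *fthl28*, of the iron storage family, had levels of 2.27 and 2.07 against 0.316 and 0.272. *gpr137bb*, described above, had log2 ratios of 2.76 and 2.83. These 3 genes had like levels in the beta cells of both genotypes. The ephrin *efnb2a*, a ligand of cell contact signalling, had 38 *gnrh3*-/- and 20 WT UMIs in beta cells, with log2 ratios of 3.20 and 2.60, and *atp1a3b*, a catalytic subunit of the sodium-potassium pump, had 34 and 21 UMIs with ratios of 2.45 and 2.36. Both were at higher levels in corticotropes than in beta cells.

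**Figure D3:**
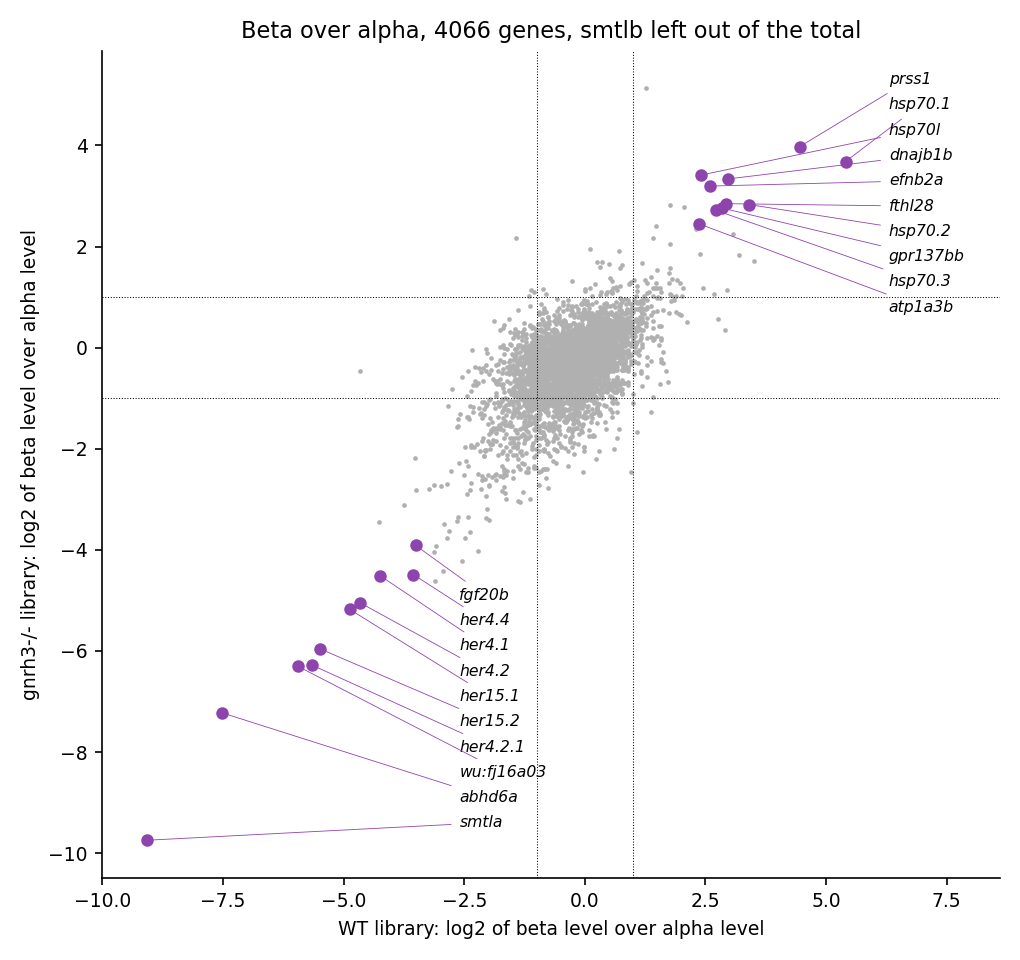
Log2 ratio of the level in somatolactotropes beta over that in alpha for 4066 genes, *gnrh3*-/- library on the vertical and WT library on the horizontal axis, with *smtlb* left out of the total. Each point is a gene, the dotted lines mark 2-fold, and the named points are the 10 highest and 10 lowest genes by the ratio nearer 0, with *smtla* at -9.74 and -9.07 and *prss1* at 3.98 and 4.46. Genes with under 3 UMIs in a group are set to 3.

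The heat shock genes were *hsp70.1*, *hsp70.2*, *hsp70.3*, *hsp70l* and *dnajb1b*. The first 4 encode inducible chaperones of the Hsp70 family and *dnajb1b* encodes a partner of the Hsp40 family that delivers unfolded proteins to them. The 4 *hsp70* genes are near-identical copies, so the division of UMIs among them is uncertain. In beta cells, *hsp70.2* had levels of 49.8 in the *gnrh3*-/- library and 14.8 in the WT library, against 7.001 and 1.391 in alpha cells. *dnajb1b* had levels of 34.8 and 7.92 in beta cells, against 3.44 and 1.02 in alpha cells. Of 17 heat shock and chaperone genes compared, 6 were over 2-fold higher in beta cells in both libraries and 0 lower, against 1.33% of all genes. The list was set up after these values had been seen, so the count is not read against that share. The sixth was *hsp90aa1.2*, the heat-inducible Hsp90. Its constitutive relative *hsp90ab1* differed little, with beta levels of 51.0 and 62.8 against alpha levels of 43.4 and 49.2. The list medians of 0.87 and 0.55 turned to -0.20 and -0.64 with *smtlb* kept in the total.

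The summed level of the 6 genes was 286 in *gnrh3*-/- beta cells (95% interval 281 to 291) and 72.7 in WT beta cells, against 35.9 and 11.8 in alpha cells. Per cell it had a median of 315 and a range of 0 to 728 in *gnrh3*-/- beta cells, and a median of 53.6 and a range of 0 to 420 in WT beta cells. A level over 100 was seen in 90 of 112 *gnrh3*-/- cells (80.4%) and 9 of 27 WT cells (33.3%), so the signal was spread over most cells of one library and a minority of the other. Over the cells of all types other than beta and alpha, the median was 28.05 in the *gnrh3*-/- library and 27.85 in the WT library. In alpha cells it was 6.53 and 3.99. A single WT beta cell held 29.8% of the UMIs of the 6 genes, while no *gnrh3*-/- beta cell held more than 2.27%. The level was lower in cells with a larger *smtlb* share, with Spearman correlations of -0.37 over 112 *gnrh3*-/- cells and -0.59 over 27 WT cells.

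The log2 ratio of *gnrh3*-/- over WT for the 6 genes was 1.98 in beta cells (95% interval 1.90 to 2.06) and 1.60 in alpha cells. Over the 9 other types with at least 50 WT cells, alpha included, it lay between -0.41 and 1.60. Without the cell with the most of these UMIs in each library, the ratio in beta cells was 2.39. Beta cells had the highest summed level of all reported types in the *gnrh3*-/- library, and in the WT library corticotropes and somatotropes beta had higher levels. The totals of the other types kept their own hormone transcripts, which lowers their levels beside beta cells. In the WT library FSH gonadotropes (68.8) and lactotropes (67.3) were close below beta cells, and the order there rests on the total used. In WT beta cells *smtlb* was 57.5% of the UMIs. With *smtlb* kept in the total, the WT beta level falls below both of these types, and below thyrotropes (55.9) and melanotropes (42.6). The smaller depth of the *gnrh3*-/- cells moves with the differences between the genotypes and its part in them was not tested.

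**Figure D4:**
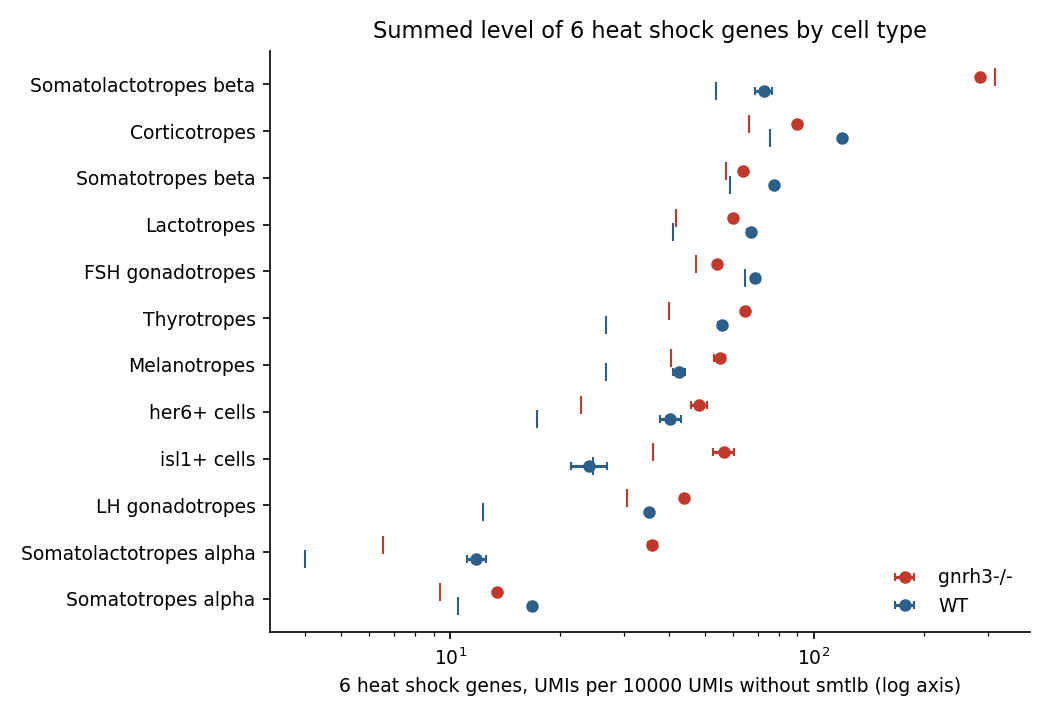
Summed level of *hsp70.1*, *hsp70.2*, *hsp70.3*, *hsp70l*, *dnajb1b* and *hsp90aa1.2* by cell type, in UMIs per 10000 UMIs without *smtlb* on a log axis, *gnrh3*-/- (red) above WT (blue). Dots are levels of the summed cells with 95% Poisson intervals and ticks are medians over cells, and somatolactotropes beta stand at 286 and 72.7. The other types keep their own hormone transcripts in the total.

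The genes lowest in beta cells relative to alpha cells were led by *smtla* and *abhd6a*. The unannotated gene *wu:fj16a03* had 4 *gnrh3*-/- and 0 WT UMIs in beta cells, with alpha levels of 7.02 and 9.64. Another 6 of the 10 were *her4.1*, *her4.2*, *her4.2.1*, *her4.4*, *her15.1* and *her15.2*, transcriptional repressors of the Hes family that are switched on by Notch signalling. All 7 measured members of these families were over 2-fold lower in beta cells in both libraries. The list was set up after their values had been seen. Together they had 4 UMIs in *gnrh3*-/- and 1 UMI in WT beta cells, against 2254 and 2826 in alpha cells. Their summed levels were 0.0892 and 0.0518 against 17.4 and 28.5. With so few UMIs in beta cells, these genes passed the UMI minimum over both types through their alpha UMIs. A lower call then followed almost from passing it, so the count of 7 is not read against the 7.82% of all genes. The copies are alike in sequence, so counts of single members are uncertain while their sum is less so. The *her4.2.1* level was 5.37 and 12.1 in alpha cells with at most 1% of each somatolactin. It was 0.340 and 0.269 in alpha cells with over 1% *smtla*, and 22.5 and 7.42 in those with 1 to 5% *smtlb*. For *her15.2* the same sets had, in that order, 4.22 and 9.23, 3.78 and 4.93, and 8.91 and 3.05. The signalling ligand gene *fgf20b* had 5 and 3 UMIs in beta cells and alpha levels of 1.68 and 1.76.

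Genes of protein folding and export from the endoplasmic reticulum (ER), the compartment in which a secreted hormone is first made, tended to be higher in beta than in alpha cells. Of 54 genes compared, 9 were over 2-fold higher in both libraries, against 1.33% of all genes, and 0 lower, with 43 above 0 in both. Their median log2 ratios were 0.55 in the *gnrh3*-/- library and 0.90 in the WT library, against -0.27 and -0.22 over all genes, and were -0.52 and -0.29 with *smtlb* kept in the total. Against all other cells, 6 of 53 ER genes were over 2-fold higher in both libraries and 0 lower, against 14.5% and 1.02% of all genes, so no excess of higher genes was seen there. The ER chaperone *hspa5* had levels of 8.43 and 6.52 in beta cells against 4.14 and 3.12 in alpha cells. *sec61b*, a part of the channel through which new proteins enter the ER, had 9.90 and 12.2 against 3.87 and 3.47. The stress sensor *atf6* had 1.98 and 3.16 against 0.878 and 1.08. The others past 2-fold were *creld2*, *ostc*, *dnajc3a*, *lman1*, *ero1b* and *tram1*, whose products serve folding, glycosylation, disulfide formation or transport. *xbp1*, a transcription factor of the same response, had 11.7 and 10.1 in beta cells and 14.7 and 12.9 in alpha cells.

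Genes of secretory granules stood on the other side. Of 20 compared, 0 were over 2-fold higher and 4 lower in beta cells in both libraries, against 7.82% lower over all genes, and their medians were -0.47 and -0.56, against -0.27 and -0.22 over all genes. The granin *scg3*, which helps to sort hormones into granules, had levels of 27.4 and 34.5 in beta cells against 110 and 135 in alpha cells. *scg5*, the chaperone of a prohormone convertase, had 5.31 and 7.97 against 19.9 and 30.3. *cpe*, which trims peptide hormones, had 0.958 and 0.932 against 3.63 and 3.15, and *pam*, which amidates them, had 15 and 2 UMIs in beta cells. All 4 stayed over 2-fold lower under each alternative tried for them, except *pam* with TMM factors.

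Immediate early genes, transcription regulators that respond within minutes to stimulation, were also mostly lower. Of 26 compared, 12 were over 2-fold lower in both libraries and 1 higher, *klf6a*, against 7.82% and 1.33% of all genes, and the medians were -1.23 and -1.25, against -0.27 and -0.22 over all genes. The growth-inhibiting gene *btg2* had levels of 10.4 and 8.34 in beta cells against 30.0 and 26.3 in alpha cells, *ier2b* had 3.50 and 2.23 against 14.3 and 9.41, and *nr4a1* had 1.65 and 1.45 against 5.95 and 5.20. The most abundant members were less far apart. *fosab* had levels of 38.5 and 19.2 in beta cells and 60.7 and 52.7 in alpha cells, and *jun* had 36.1 and 19.4 against 24.7 and 20.2.

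Among 24 transcription factors of pituitary lineages, 2 were over 2-fold higher and 11 lower in beta cells in both libraries, against 1.33% and 7.82% of all genes. The higher ones were *klf6a* and *six1a*, a homeobox factor of the placode from which the pituitary arises, with levels of 0.580 and 1.14 in beta cells against 0.177 and 0.101 in alpha cells. *insm1a*, a regulator of endocrine differentiation, had 2.14 and 2.43 against 8.83 and 10.9, and *pax7a*, a factor of the intermediate lobe in mammals, had 11 and 6 UMIs in beta cells with log2 ratios of -1.88 and -1.08. *six3b* had 1.65 and 3.88 against 6.83 and 9.78. *pou1f1* itself was at like levels in both types, 2.79 and 4.66 in beta cells against 3.60 and 3.37 in alpha cells. Summed over the list, alpha cells were the highest of the other reported types in both libraries, at 66.1 and 74.5. Beta cells had 32.6 and 41.5, against 26.5 and 31.9 over all other cells. Against all other cells, 6 of 15 list members were over 2-fold higher in beta cells and 0 lower, against 14.5% and 1.02% of all genes. The other cells keep their own hormone transcripts in these totals. Leaving all hormone genes out moves the log2 ratios over all other cells by -0.49 and -0.52, which turns the order of the sums. The count of 6 was not repeated on those totals.

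Of 15 circadian clock genes 4 were lower in beta cells, against 7.82% of all genes, and 0 higher, and *per1b* had the largest difference, with log2 ratios of -2.55 and -1.70. Of 8 receptors of hypothalamic and peripheral signals 1 was lower, the growth hormone receptor *ghrb*, and of 7 cell cycle genes 1 was lower, *hmgb2b*, which with lists this short is near the 7.82% over all genes. Among 3 pigment and acid-base genes, *slc4a4a* was higher, with 0.735 and 0.984 against 0.293 and 0.262. It encodes a sodium bicarbonate cotransporter, and 12 of the 17 genes of this list in the files had no UMI in beta cells. Of 13 ion channel and calcium genes, 77 cytosolic ribosomal protein genes and 12 mitochondrially encoded genes, 0 were past 2-fold in either direction. Over all genes the shares were 1.33% higher and 7.82% lower. For the lists of 12 and 13 genes, 0 is near these shares.

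Markers of blood, vessel and immune cells were at or near 0 in beta cells. Blood and endothelial markers had 0 UMIs in both libraries, and the 5 leukocyte markers had 2 UMIs in the *gnrh3*-/- library and 0 in the WT library. The 6 neuron and glia markers had summed levels of 2.36 and 2.17, against 1.99 and 2.22 over all other cells. Of these markers 3 had no UMI, and *snap25a* (87 *gnrh3*-/- and 23 WT UMIs) and *elavl4* (19 and 18), which endocrine cells also use, accounted for nearly all of the sum.

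Against all other cells, genes were compared where beta cells of each library had at least 10 UMIs. Of 1969 such genes, 285 (14.5%) were over 2-fold higher in beta cells in both libraries and 20 (1.02%) lower, with medians of 0.53 and 0.72. Genes nearly absent from beta cells could not pass this minimum, which favours higher over lower genes, so nothing is read from the split or the medians. Most of the other cells carry large amounts of their own hormone transcripts, and leaving all hormone genes out of the totals brought the medians to 0.038 and 0.19 and the counts to 118 higher and 42 lower. The 10 highest genes were past 2-fold in both libraries under each of the alternatives tried for them.

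Several of these genes encode proteins of the cell surface and of excitable cells. The potassium channel subunit *kcne4* had a level of 2.96 in *gnrh3*-/- beta cells and 1.09 in WT beta cells, against 0.0131 and 0.0340 in all other cells. The GABA-A receptor subunit *gabrb2a* had 13 and 10 UMIs in beta cells, levels of 0.290 and 0.518 against 0.0140 and 0.0116. *loxhd1b*, whose human relative is needed in hair cells of the inner ear, had 16 and 11 UMIs, levels of 0.357 and 0.570 against 0.00528 and 0.00698. All 3 ranked first among the reported types in both libraries, although *gabrb2a* and *loxhd1b* rest on few UMIs. The adhesion genes *dscama* and *pcdh11.1* also ranked first in both, with levels of 1.09 and 1.45 for *dscama* against 0.0821 and 0.0912, and of 2.05 and 0.880 for *pcdh11.1* against 0.0762 and 0.0414. The chemokine gene *cxcl12b* had 0.758 and 0.621 against 0.0435 and 0.0479.

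The galanin gene *galn*, which encodes a neuropeptide, had 22 *gnrh3*-/- and 13 WT UMIs in beta cells, levels of 0.490 and 0.673 against 0.0295 and 0.0251 in all other cells. It ranked first in both libraries, and lactotropes came next. *prss1* and *cox8b* were also high in lactotropes. With the hormone genes left out of the totals, *cox8b* had 29.4 and 35.7 in beta cells and 41.6 and 41.0 in lactotropes, and *prss1* had 2.25 and 2.44 in beta cells and 2.64 and 1.58 in lactotropes. The unannotated gene *si:ch211-153b23.5* had levels of 7.04 and 7.82 in beta cells and 7.23 and 7.43 in alpha cells, against 0.531 and 0.592 over all other cells, and was thus a transcript of both somatolactotropes. Receptor genes with a like pattern were *htr1d*, for serotonin, with 0.713 and 0.414 against 0.724 and 0.625 in alpha cells, and *adcyap1r1a*, for the peptide PACAP, with 0.669 and 1.29 against 1.02 and 1.19.

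Over all genes, somatolactotropes alpha were the most similar type. With hormone genes left out, the Pearson correlation of log2 levels across 12634 genes was 0.931 in the *gnrh3*-/- library and 0.897 in the WT library, and lactotropes came next with 0.905 and 0.865. Alpha also ranked first on the other scales tried. The beta cells of the 2 libraries had a correlation of 0.925 with each other. Genes are not independent, so these values order the types and no more.

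Beta cells had more genes per cell than alpha cells, but fewer at equal depth. The median beta cell had UMIs of 1182 genes in the *gnrh3*-/- library and 1858 in the WT library, against 1053.5 and 1530.5 in alpha cells. When each cell was thinned to 1000 UMIs of genes other than hormones, the medians were 466 and 493 in beta cells against 521 and 540 in alpha cells. The thinning left out 2 *gnrh3*-/- alpha cells and 0 beta cells.

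Within beta cells, *gnrh3*-/- and WT were compared over 1967 genes with at least 30 UMIs in all and 4 in each library. In *gnrh3*-/- cells, 84 genes (4.27%) were over 2-fold higher and 63 (3.2%) over 2-fold lower, with a median log2 ratio of -0.091. The balance of the split rested on the total used. With TMM factors 144 genes were higher and 23 lower, with DESeq2 size factors 141 and 24, and with *smtlb* kept in the total 111 and 41, which move all log2 ratios up by 0.26, 0.22 and 0.13. The spread was wider in beta cells than over all other cells, with 5th and 95th percentiles of the log2 ratio of -0.91 and 0.91 against -0.42 and 0.23 for the same genes. The beta sums hold far fewer UMIs than those of all other cells, and the part of counting error in this spread was not tested.

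The highest *gnrh3*-/- over WT ratios were those of hormone genes of other types and of heat shock genes. *gh1* had a log2 ratio of 5.58, which was 3.20 without the cell with the most *gh1* UMIs in each library and 1.37 without the 2 mixed cells. *tshba*, the beta subunit of thyroid-stimulating hormone, had 204 UMIs in *gnrh3*-/- and 11 in WT beta cells, with a median of 1 and 0 UMIs per cell and a log2 ratio of 3.00. *pomca*, the precursor of corticotropin and melanotropins, had 237 and 19 UMIs with medians of 2 and 0, and a ratio of 2.42. These were low counts spread over many cells. The ratio for *prl* was 1.64. *lhb* had 62 and 15 UMIs, and *fshb* had 33 and 1.

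The counts of *tshba* and *pomca* were close to those of empty droplets, barcodes of 10 to 100 UMIs that hold free RNA. *tshba* had 1.82 UMIs per *gnrh3*-/- and 0.407 per WT beta cell, against 1.34 and 0.290 per empty droplet. *pomca* had 2.12 and 0.704 UMIs per beta cell against 2.03 and 0.837 per empty droplet. For both genes the empty droplets of the *gnrh3*-/- library held more than those of the WT library, by log2 ratios of 2.21 and 1.28. The other hormone genes were not all as close. Per *gnrh3*-/- and WT beta cell, *gh1* had a mean of 100 and 3.74 UMIs against 3.44 and 1.52 per empty droplet. The *gnrh3*-/- mean rests on the 2 mixed cells, which held 9503 and 1127 of the 11209 UMIs. The median beta cell held 4 *gh1* UMIs in the *gnrh3*-/- library and 3 in the WT library. *prl* had 1.62 and 0.926 against 1.21 and 0.449, *lhb* 0.554 and 0.556 against 0.346 and 0.180, and *fshb* 0.295 and 0.0370 against 0.144 and 0.0457. In alpha cells the *gnrh3*-/- over WT log2 ratios were 3.22 for *tshba* and 3.63 for *pomca*, while over all other cells, which include the types that make these hormones, they were -0.24 and -0.41. Leaving out those types, the ratios of the types of at least 50 WT cells lay between 1.04 and 4.56 for *pomca* (7 types) and between -0.66 and 4.56 for *tshba* (8 types), alpha cells included, so the beta values lay inside the range of other types. When a share of the empty-droplet profile was subtracted, at most 0.602% of *gnrh3*-/- and 0.132% of WT beta UMIs, the ratio of *tshba* was 2.14, that of *prl* 0.17, and that of *pomca* -1.20. The size of this share was set by *pomca* in the *gnrh3*-/- library and by *fshb*, with 1 UMI, in the WT library. The value of each after subtraction is thus fixed by construction in that library, and the WT share rests on that UMI.

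Of 16 heat shock and chaperone genes in this comparison, 8 were over 2-fold higher in *gnrh3*-/- beta cells and 0 lower, against 4.27% of all genes, with a list median of 0.93. As stated above, the list was set up after values of these data had been seen, so this count is not read against that share. *hsp70.1* had 1605 UMIs in *gnrh3*-/- and 140 in WT beta cells, levels of 35.8 and 7.25 and a log2 ratio of 2.30, and 1 WT cell held 72.9% of the WT UMIs. *hsp90aa1.2* had levels of 86.3 and 17.7 and a ratio of 2.29, against -0.015 over all other cells, and *hsp70l* and *dnajb1b* had ratios of 2.21 and 2.13. Polyubiquitin *ubb*, with 337 and 38 UMIs, had a ratio of 1.93. Among 21 immediate early genes, 3 were over 2-fold higher, against 4.27% of all genes, namely *fosab* at 1.01, just past the limit, *gadd45ba* at 1.21 and *atf3* at 1.99. The last, a stress-induced transcription factor, had 46 UMIs in *gnrh3*-/- and 5 in WT beta cells. *cgref1*, of the EF-hand family, had 64 and 6 UMIs and a ratio of 2.199, and was also higher in *gnrh3*-/- alpha cells (2.06) and over all other cells (1.01).

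**Figure D5:**
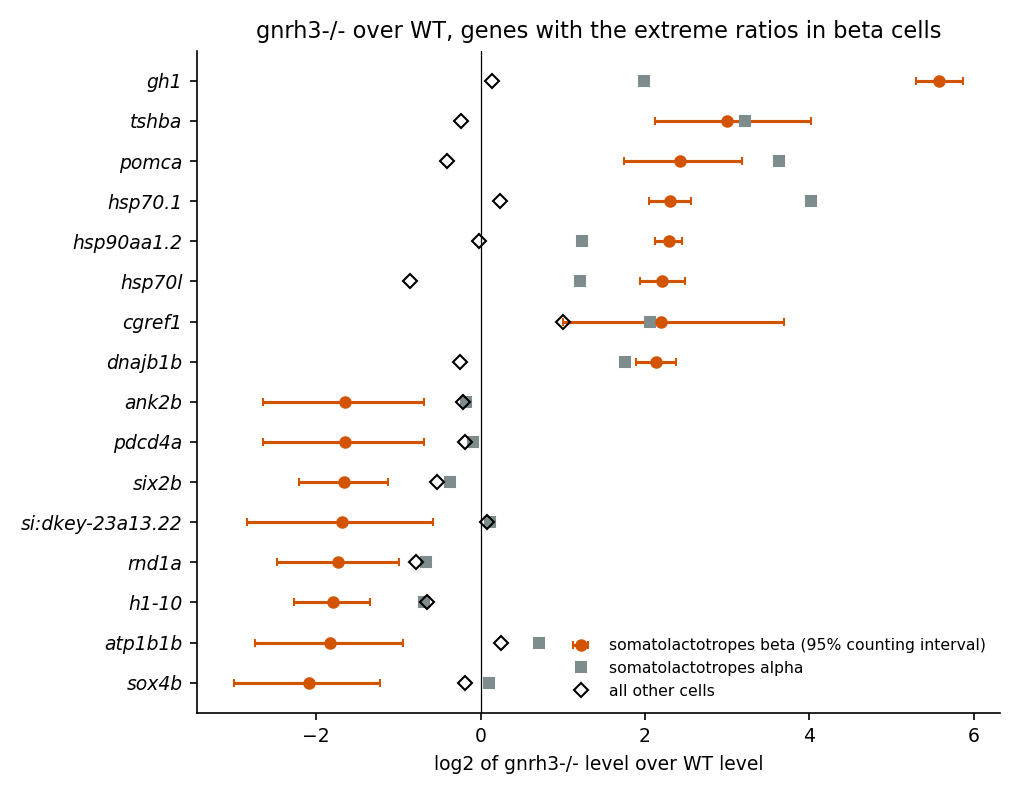
Log2 ratio of *gnrh3*-/- over WT levels for the 8 highest and 8 lowest genes in somatolactotropes beta (orange, with 95% counting intervals), beside the ratio in somatolactotropes alpha (grey squares) and in all other cells (open diamonds), *smtlb* left out of the total. *gh1* stands at 5.58 and *sox4b* at -2.09.

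The genes lowest in *gnrh3*-/- beta cells were regulatory and structural genes with modest counts. *sox4b*, a transcription factor of progenitors, had 18 UMIs in *gnrh3*-/- and 33 in WT beta cells and a log2 ratio of -2.09, which was -0.96 without the cell with the most *sox4b* UMIs in each library, since 1 WT cell held 63.6% of its UMIs. The linker histone gene *h1-10* had 68 and 102 UMIs, levels of 1.52 and 5.28, and a ratio of -1.80 (95% interval -2.27 to -1.34). *six2b*, a homeobox factor, had 52 and 71 UMIs and a ratio of -1.67 (-2.21 to -1.13), and *rnd1a* had 28 and 40 UMIs and a ratio of -1.73 (-2.48 to -0.998). For *h1-10*, *six2b* and *rnd1a* the ratios in alpha cells were also below 0, at -0.69, -0.37 and -0.67, and over all other cells at -0.65, -0.53 and -0.79. The pump subunit gene *atp1b1b*, with 19 and 29 UMIs, had -1.83 in beta cells but 0.72 in alpha cells. The others were *ank2b*, a cytoskeletal adaptor, and *pdcd4a*, a repressor of translation, each with 17 and 23 UMIs and a ratio of -1.65, and the unannotated *si:dkey-23a13.22*, with 13 and 18 UMIs and -1.69.

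Few genes that serve hormone synthesis were past 2-fold between the genotypes. Of 52 ER genes, 0 were over 2-fold higher and 1 lower in *gnrh3*-/- beta cells, against 4.27% and 3.2% of all genes. The lower one was *rpn1* at -1.50 with 23 and 28 UMIs. The list median was -0.27, against -0.091 over all genes, and 15 of the 52 lay above 0. Of 14 secretory granule genes, 10 ion channel and calcium genes, 75 ribosomal protein genes and 10 mitochondrially encoded genes, 0 were past 2-fold. For the lists of 10 and 14 genes, 0 is near the shares over all genes. The medians of all 4 lists lay between -0.15 and -0.024. The medians of these 4 lists turned positive with TMM factors. Of 16 lineage transcription factors 2 were lower, against 3.2% of all genes, *sox4b* and *six3b*, *six3b* at -1.24 with 74 and 75 UMIs. Of 6 receptors 2 were higher, against 4.27% of all genes, the insulin-like growth factor receptor *igf1rb* at 1.04 and the estrogen receptor *esr2b* at 1.22, with 62 and 13 UMIs for *igf1rb* and 27 and 5 for *esr2b*. *pou1f1* had levels of 2.79 in *gnrh3*-/- and 4.66 in WT beta cells, a ratio of -0.74.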

How the data were processed

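Single cells from pooled pituitaries of *gnrh3*-/- and WT females were profiled with the 3' v3.1 droplet kit, 1 library per genotype. The authors aligned reads to GRCz11 with Cell Ranger 6.0.2 and protein-coding genes of Ensembl release 106, integrated the libraries in Seurat 4, and deposited raw UMI counts of genes by barcode with a cell type for each cell. In the cells, 0 entries of the matrix of cells differed from the matrices of all barcodes. The deposited types were not derived again. 1 of the 14 types and its marker are not reported here.

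UMIs were summed per library and cell type, *smtlb* was left out of the total, and levels are per 10000 UMIs with exact Poisson intervals. Shares have exact Clopper-Pearson intervals at 95% confidence, and ratios have intervals from the exact binomial interval of both sums. A sum under 3 UMIs was set to 3 in ratios. Intervals cover counting error only, and with no replicate no count model or test was fitted. Genes past 2-fold were counted among those over the stated UMI minimums. Genes were named by rule: the hormones of the family, the 10 highest and 10 lowest over alpha and the 10 highest over all other cells by the ratio nearer 0, the 8 highest and 8 lowest of *gnrh3*-/- over WT, and, per gene list, the 4 with most UMIs or any past 2-fold over alpha. List members past 2-fold in the other comparisons, and those given as contrasts, were named after their values were seen. The members, lists and rules were chosen with earlier results of these data known.

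Alternatives covered cells with over 5% of UMIs from a hormone of another type, Scrublet doublets (kept otherwise), cells under 1000 UMIs, per-cell means, other totals, TMM factors (edgeR 4.0.16) and DESeq2 1.42.0 size factors, other minimums, subtraction of the empty-droplet profile, and leaving out the top cell. The added alpha cells, the alternatives of the heat shock sum and those against all other cells were chosen after seeing the data. Scripts ran in Python 3.11.15 with scipy 1.17.1 and scanpy 1.11.5 and in R 4.3.3, and the ratios were tested on simulated data.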

Additional observations from a re-analysis of the deposited data

Results flagged for a closer look

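The potassium channel subunit gene *kcne4* had ratios of opposite sign in the cells annotated as somatolactotropes beta and alpha. Its log2 ratio of *gnrh3*-/- over WT was 1.45 in beta cells (95% counting interval 0.78 to 2.19), from 133 and 21 UMIs, against -2.42 in alpha cells (-3.52 to -1.45), from 11 and 45 UMIs. The difference between the types was not tested, since there was 1 library per genotype. In WT alpha cells the *kcne4* level was 3.67 in cells with over 5% *smtlb* and 0.0128 in cells with up to 1%, and in *gnrh3*-/- alpha cells with over 5% *smtlb* it had 0 UMIs. Over all cells with over 5% *smtlb*, of any type, the level was 1.91 in the *gnrh3*-/- library and 2.06 in the WT library, so the difference between the annotated beta cells was not seen in that set. The 2 libraries are not alike there. The *gnrh3*-/- set held 21 cells of types other than somatolactotropes, 15 of them called as doublets, and the WT set held 0. In WT beta cells 1 cell held 38.1% of the *kcne4* UMIs.

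Droplets with much *smtlb* were also found among barcodes that the authors did not keep as cells. Of such barcodes with at least 500 UMIs, 5 of 537 in the *gnrh3*-/- library and 2 of 339 in the WT library had over 5% *smtlb*, with 1819 and 3271 *smtlb* UMIs in all.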

How the results depend on the processing

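The log2 ratio of *smtlb* between *gnrh3*-/- and WT beta cells was -0.080 without cells with over 5% of UMIs from another hormone, -0.11 as a mean of cells, 0.014 with TMM and -0.024 with DESeq2 factors, and 0.024 with the added alpha cells, which also gave shares of 3.21% of *gnrh3*-/- and 2.37% of WT cells. Of the counts of beta over alpha, the higher genes numbered 12 with *smtlb* in the total, and 112, 23 and 3281 with minimums of 10, 100 and 1 UMIs, and the lower genes 158 with the added alpha cells, 2448 with *smtlb* in the total and 125 with a minimum of 100. With no minimum, genes with under 3 UMIs enter at the value of 3. Of *gnrh3*-/- over WT, the higher genes numbered 144 with TMM, 141 with DESeq2 factors, 22 with a minimum of 100 and 236 with none, and the lower genes 109 with the added alpha cells, 41 with *smtlb* in the total, 23 with TMM, 24 with DESeq2 factors, 483 and 7 with minimums of 10 and 100, and 6270 with none. Against all other cells, the counts were 63 higher and 185 lower with *smtlb* in the total, 118 and 42 without hormone genes, and 102 and 52 with TMM. Of the 6 hormone genes *gh1*, *prl*, *pomca*, *tshba*, *lhb* and *fshb*, with no UMI minimum, 5 (all but *lhb*) were over 2-fold higher in *gnrh3*-/- beta cells, and 3 after subtraction of free RNA. Without thinning, genes per beta cell were 1.12 and 1.21 times those per alpha cell in the *gnrh3*-/- and WT libraries, against 0.894 and 0.913 with it.

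The heat shock sum of *gnrh3*-/- over WT was 2.13 with the added alpha cells, 2.07 as a mean of cells, 2.11 with *smtlb* in the total and 2.39 without the top cells. Over alpha it was 3.06 without cells with over 5% of another hormone, 2.78 with the added alpha cells, 3.35 as a mean of cells, 1.93 with *smtlb* in the total and 3.07 without the top cells in the *gnrh3*-/- library, against a main value of 3.00, and 2.40, 1.43 and 2.30 with the added alpha cells, *smtlb* in the total and without the top cells in the WT library, against 2.62. Of named genes, *pomca* had -1.20 for *gnrh3*-/- over WT and 0 over alpha after subtraction of free RNA. The share subtracted from *gnrh3*-/- beta cells was set by *pomca* itself. *hspa5* had -0.043 over alpha with *smtlb* in the total. Among 58 genes named past 2-fold over alpha, 45 to 57 stayed past it, among 10 over all other cells 10, and among 16 of *gnrh3*-/- over WT 15 to 16. Of all values under the alternatives, 78 of those for whole comparisons moved by less than the limits used and 46 by more. For single genes, 518 moved by less than the limits, 155 by more, and 4 changed sign.

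No paired analysis was possible because there was 1 library per genotype. The spread between animals is unknown. Beta cells were 27 in the WT library, so that 3 UMIs there are a level of 0.155, and single cells can decide a ratio, as for *gh1*, *hsp70.1* and *sox4b*.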
